A study of Mus musculus with 16 samples.

Results

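The 9 genes studied here belong to pathways that hold back the differentiation of oligodendrocytes, the myelin-forming cells of the brain. They were followed through demyelination and recovery in the corpus callosum, the white matter tract that joins the hemispheres. They were the Notch receptor Notch1, its ligand Jag1, the Notch targets Hes1 and Hes5, the Id family members Id1, Id2 and Id4, the Nogo receptor partner Lingo1, and the Wnt feedback gene Axin2. The members were given by name, and every probe whose accession maps to one of the 9 genes was taken. This gave 13 of the 41153 probes of the processed table, in which 18737 genes have a named probe.

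RNA came from wild-type C57BL/6 male mice, 7 to 8 weeks of age at inclusion by the study's methods, and each sample was hybridised to 1 one-colour Agilent array. Untreated controls on normal chow gave 3 arrays and were matched in age and sex to the animals fed for 4 weeks. Cuprizone (CPZ), a copper chelator mixed into the chow that kills oligodendrocytes, was fed for 2 weeks (3 arrays) or 4 weeks (4 arrays). A group of 6 arrays came from mice returned to a regular diet after 4 weeks of CPZ, during remyelination. By the study's methods these mice were taken after 2 days or after 2 weeks of regular diet, and the labels do not say which array is which, so the spread of this group holds a time difference. The labels give 0.2 to 0.4% CPZ and the methods 0.2%. The tissue was cut by hand out of frozen brain sections. The study's methods state that 3 to 6 mice were used per condition, the same as the range of arrays per group, while the labels do not tie arrays to animals. If some arrays share an animal, p-values measure in part a technical spread.

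Notch receptors on precursor cells are cut when they meet a ligand such as Jagged1 on a neighbouring cell. The freed intracellular part joins the DNA-binding protein RBPJ and switches on Hes genes, whose products repress genes of differentiation. Id proteins, which bone morphogenetic proteins induce, bind the partners of basic helix-loop-helix factors such as Olig1 and Olig2 and keep them off DNA. Axin2 is a target of canonical Wnt signalling and a scaffold that degrades beta-catenin, and Lingo1 acts in the Nogo receptor complex and restrains myelination.

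Values are log2 signals of the processed table, scaled by the authors to each array's 75th percentile. The zero of each probe is the median of its 3 untreated arrays. A difference of 1 is a 2-fold change. The probe files recorded under each sample did not match the table's columns for 14 of 16 arrays, 13 of which fell in another group. Groups were taken from the columns, which are named by sample. Under the recorded assignment limma called 0 of all tested probes in each comparison, so the 0 of 9 members called there says nothing about the members. The share of probes well above background was 57.3 to 60.3% on 3 arrays (untreated replicate 1 and 4-week replicates 2 and 3) and 64.6 to 72.2% on the others. Tests took in a probe when no array of some group had it flagged as dim, and 12 of the 13 probes entered. The other, a second probe of Jag1, was well above background on 0 arrays. Hes1 was well above background on 15 of 16 arrays, the exception being on regular diet, and the other members on 16.

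None of the 9 genes was called at 2 weeks or 4 weeks of CPZ or on regular diet, where a call needed both a 2-fold difference and a limma p under 0.05 after adjustment. Against untreated controls, 0 of 9 were called at 2 weeks, beside 0.193% of all tested probes. At 4 weeks it was 0 of 9 beside 0.175%, and on regular diet 0 of 9 beside 0.803%. Between 4 and 2 weeks it was 0 of 9 beside 0.0109%, and between regular diet and 4 weeks 0 of 9 beside 0.0036%. At an unadjusted p under 0.05, the counts were 0, 0, 0 and 0 in the first 4 of these comparisons, beside 9.35%, 10.1%, 10.6% and 10.5% of all probes. In the last it was 1 of 9, Hes1, beside 24.7%. Groups did not overlap for 1, 0, 0, 0 and 1 of 9 members in the same order (Hes5 and Hes1), beside 17.3%, 10%, 8.7%, 13.8% and 7.63% of all probes. The methods' test, an analysis of variance with Tukey's comparison, called 0 of 9 in each. With so few arrays, these counts do not show that the genes stayed at the same level, and the interval of each difference says how large a change is left possible.

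**Figure D1:**
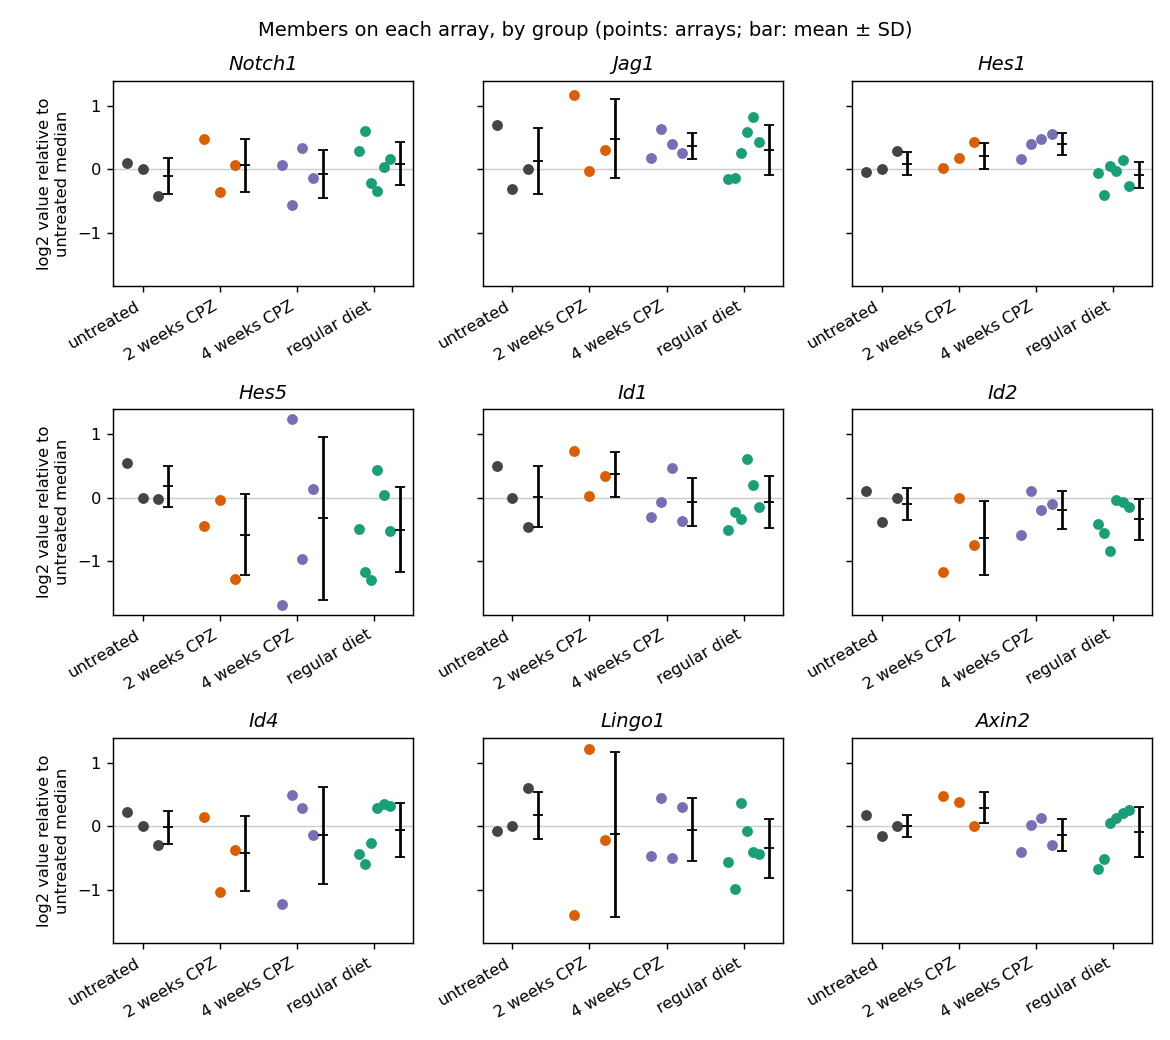
Log2 value of each member (brightest probe) on every array, relative to the median of the untreated arrays, with points for arrays and bars for the mean ± SD of the group. The 4 groups overlap for most members, Hes5 and Lingo1 spread widely, and the Hes1 arrays at 4 weeks all lie above those on regular diet.

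Notch1, the receptor, moved little. Its values were 0.10, 0 and -0.42 on the untreated arrays, 0.47, -0.36 and 0.07 at 2 weeks, and 0.06, -0.56, 0.34 and -0.14 at 4 weeks. On regular diet they ran from -0.34 to 0.60 with a median of 0.10. The groups overlapped, and the group means spanned 0.19. The difference from untreated was 0.17 at 2 weeks (95% interval -0.50 to 0.83, limma adjusted p = 0.912) and 0.03 at 4 weeks (-0.60 to 0.65, adjusted p = 0.983). Both intervals exclude a 2-fold change of Notch1 in either direction.

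Jag1 encodes the ligand Jagged1, which astrocytes and vessel walls present to precursor cells. It read 0.70, -0.31 and 0 untreated, 1.17, -0.03 and 0.30 at 2 weeks, and 0.17, 0.64, 0.39 and 0.26 at 4 weeks. On regular diet it ran from -0.16 to 0.82 with a median of 0.34. The highest array was at 2 weeks, followed by one on regular diet and one untreated, and the groups overlapped. The difference was 0.35 at 2 weeks (-0.44 to 1.15, limma adjusted p = 0.893) and 0.23 at 4 weeks (-0.51 to 0.97, adjusted p = 0.885).

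Hes1 and Hes5, the repressors downstream of Notch, had opposite precision. Hes1 had the smallest spread of the members, with a residual SD of 0.19 (9.1st percentile of all tested probes), and Hes5 the largest, 0.83 (84.8th percentile). The median residual SD over all tested probes was 0.39. Hes1 was also the dimmest of the tested member probes, with a mean level of -3.98 on the log2 scale relative to the 75th percentile. Whether low signal narrowed its spread and intervals was not tested.

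Hes1 values were -0.04, 0 and 0.29 untreated, 0.02, 0.18 and 0.43 at 2 weeks, and 0.16, 0.39, 0.48 and 0.55 at 4 weeks. On regular diet they ran from -0.41 to 0.14 with a median of -0.04. All 4 arrays at 4 weeks lay above all 6 on regular diet, the nearest of them by 0.16 against 0.14. The difference of regular diet from 4 weeks was -0.49 (-0.80 to -0.18), with an unadjusted p of 0.00422 and a limma adjusted p of 0.0986, so it was not called. Among all tested probes, 7.63% did not overlap between these groups. With slide as a block the difference was -0.46 (adjusted p = 0.169), and within the 3 slides that hold both groups it was -0.81, -0.12 and -0.42. Median scaling took the median of all tested probes in this comparison from 0.01 to -0.29 and gave -0.79 for Hes1 (adjusted p = 0.0325), and leaving out 4-week replicate 1 gave -0.57 (adjusted p = 0.0457), both under the 2-fold minimum. Over all alternatives the adjusted p ran from 0.0325 to 0.842. Against untreated, Hes1 differed by 0.31 at 4 weeks (-0.09 to 0.72, adjusted p = 0.655) and by -0.18 on regular diet (-0.52 to 0.16, adjusted p = 0.642).

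Hes5 values were 0.55, 0 and -0.02 untreated, -0.44, -0.03 and -1.27 at 2 weeks, and -1.69, 1.24, -0.96 and 0.13 at 4 weeks. On regular diet they ran from -1.30 to 0.44 with a median of -0.51. The untreated arrays lay together, while the 4-week arrays held both the lowest and the highest Hes5 value of the series. All 3 arrays at 2 weeks lay below the 3 untreated ones, the nearest by -0.03 against -0.02, and 17.3% of all tested probes did not overlap in this comparison. The difference was -0.76 at 2 weeks (-2.27 to 0.76, limma adjusted p = 0.893), -0.50 at 4 weeks (-1.92 to 0.92, adjusted p = 0.873) and -0.68 on regular diet (-1.84 to 0.49, adjusted p = 0.62). Both a fall of more than 2-fold and no change lie inside these intervals. With slide as a block the 2-week value was -1.64 (adjusted p = 0.188), and on the 1 slide that holds both groups (2 arrays against 1) it was -1.41. Without 2-week replicate 3 it was -0.41, and without 4-week replicate 1 the 4-week value was -0.04. Within the slides that hold both 4-week and untreated arrays (1 array against 1 on each), Hes5 differed by -0.96 and -1.67. Over 27 alternatives its 4-week value ran from -1.16 to 0.10.

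Id1, Id2 and Id4 encode helix-loop-helix proteins without a DNA-binding part. Id1 read 0.50, 0 and -0.46 untreated, 0.74, 0.03 and 0.34 at 2 weeks, and -0.30, -0.06, 0.46 and -0.36 at 4 weeks. On regular diet it ran from -0.51 to 0.61 with a median of -0.19. The untreated arrays alone lay as far apart as most arrays of the other groups. The difference was 0.36 at 2 weeks (-0.36 to 1.08, limma adjusted p = 0.893) and -0.08 at 4 weeks (-0.75 to 0.60, adjusted p = 0.956). The second probe of Id1 followed the first with r = 0.99 over 16 arrays.

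Id2 read 0.10, -0.38 and 0 untreated, -1.16, 0 and -0.74 at 2 weeks, and -0.59, 0.11, -0.20 and -0.10 at 4 weeks. On regular diet it ran from -0.84 to -0.03 with a median of -0.27. Of the 2-week arrays 2 were low on this probe, and the other lay among the controls. The difference was -0.54 at 2 weeks (-1.25 to 0.16, limma adjusted p = 0.749), the lowest adjusted p of the 9 genes there. It was -0.10 at 4 weeks (-0.76 to 0.56, adjusted p = 0.939) and -0.25 on regular diet (-0.79 to 0.30, adjusted p = 0.675). The probes of Id2 correlated at r = 0.85. The second read -0.89, 0 and -0.18 at 2 weeks against 0.36, -0.37 and 0 untreated, so that 1 array was low, and gave a difference of -0.35 (-1.10 to 0.39, adjusted p = 0.893).

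Id4 read 0.23, 0 and -0.29 untreated, 0.14, -1.04 and -0.38 at 2 weeks, and -1.22, 0.49, 0.29 and -0.14 at 4 weeks. One array at 2 weeks and one at 4 weeks stood about 1 below the controls. On regular diet the 6 values were -0.60, -0.43, -0.27, 0.29, 0.32 and 0.35, with no array between -0.27 and 0.29. The difference was -0.41 at 2 weeks (-1.44 to 0.62, limma adjusted p = 0.893) and -0.12 at 4 weeks (-1.08 to 0.84, adjusted p = 0.951). The second Id4 probe gave differences of the other sign, 0.05 at 2 weeks (-0.88 to 0.99, adjusted p = 0.981) and 0.12 at 4 weeks (-0.76 to 1.00, adjusted p = 0.947), and its low 2-week array read -0.88 while its lowest 4-week array, at -0.43, lay within the controls. The probes of Id4 agreed less than those of Id1 or Id2, with r = 0.60 and a largest difference of 0.88 on 1 array.

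Lingo1, which is made by neurons and by oligodendrocyte lineage cells, read -0.08, 0 and 0.60 untreated, -1.39, 1.21 and -0.21 at 2 weeks, and -0.47, 0.44, -0.50 and 0.30 at 4 weeks. On regular diet it ran from -0.99 to 0.36 with a median of -0.42. The 3 arrays at 2 weeks held both the lowest and the highest Lingo1 value of the series. The difference was -0.30 at 2 weeks (-1.62 to 1.01, limma adjusted p = 0.92), -0.23 at 4 weeks (-1.46 to 1.00, adjusted p = 0.926) and -0.53 on regular diet (-1.48 to 0.43, adjusted p = 0.632). Within the slides that hold both 4-week and untreated arrays (1 array against 1 on each), Lingo1 differed by -0.50 and -1.07. Over 27 alternatives its 4-week value ran from -0.98 to 0.36.

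Axin2 read 0.18, -0.16 and 0 untreated, 0.47, 0.38 and 0.01 at 2 weeks, and -0.40, 0.02, 0.13 and -0.29 at 4 weeks. On regular diet it ran from -0.67 to 0.25 with a median of 0.09, and 2 arrays, at -0.67 and -0.52, stood below the other 4. The difference was 0.28 at 2 weeks (-0.21 to 0.77, limma adjusted p = 0.893) and -0.14 at 4 weeks (-0.60 to 0.31, adjusted p = 0.887). Between 4 and 2 weeks it was -0.42 (-0.88 to 0.03, adjusted p = 0.474). A 2-fold change of Axin2 lies outside each of these intervals.

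**Figure D2:**
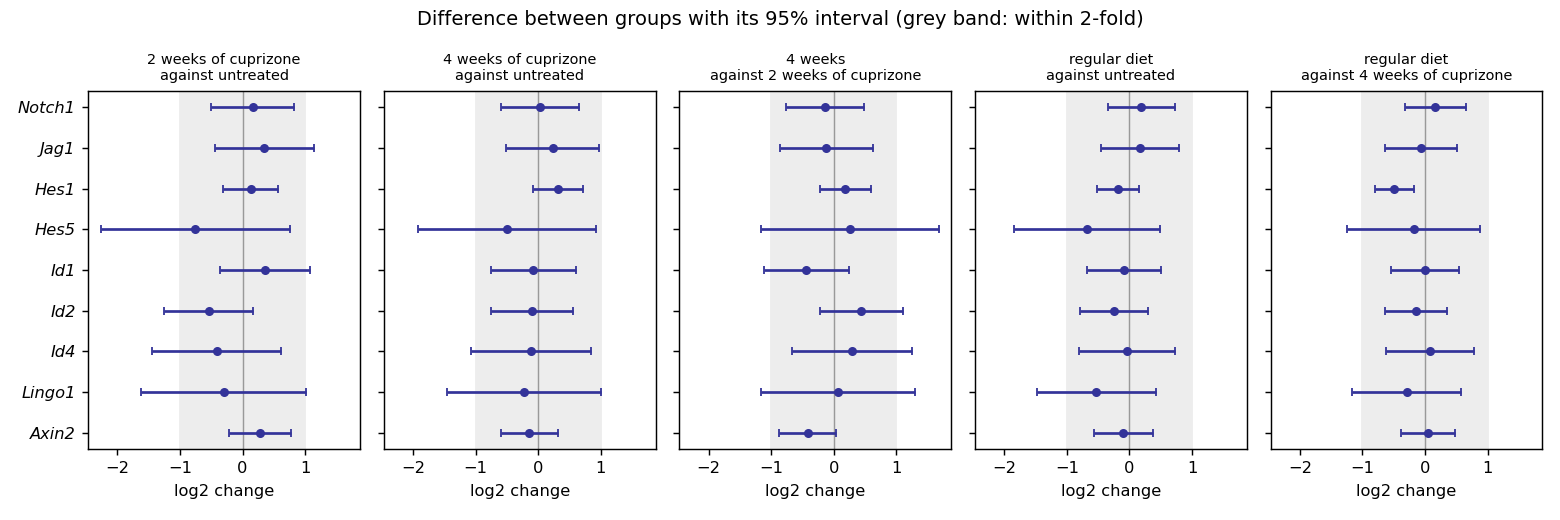
Difference between 2 groups for each member on the log2 scale, with points for limma's estimate, bars for the 95% interval and a grey band for changes within 2-fold. The Notch1, Hes1 and Axin2 intervals stay inside the band in all 5 comparisons, and the Hes5 and Lingo1 intervals reach outside it in each.

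The 95% interval lay wholly within a 2-fold change for 3 of 9 members at 2 weeks, 6 at 4 weeks and 7 on regular diet, each against untreated. The shares of all tested probes with such an interval were 49.7%, 53.5% and 60.3%. Notch1, Hes1 and Axin2 had one in all 5 comparisons, and Hes5 and Lingo1 in none. The members' median difference from untreated was 0.13 at 2 weeks, -0.10 at 4 weeks and -0.10 on regular diet, where the median over all probes was 0.04, -0.03 and -0.02. By group mean, Hes5, Id2, Id4 and Lingo1 were highest in untreated tissue, Id1, Jag1 and Axin2 at 2 weeks, Hes1 at 4 weeks and Notch1 on regular diet. In the 5 comparisons tested, no 2 groups in these orders were called different.

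Cell type markers were read on the same arrays. The 14 tested oligodendrocyte markers had a median difference from untreated of -2.90 at 2 weeks, -2.35 at 4 weeks and -1.37 on regular diet, with 12, 9 and 0 of them lower at an unadjusted p under 0.05 and 0 called. That threshold took in 9.35%, 10.1% and 10.6% of all probes in these comparisons, in either direction. The summed linear level of the list ranged from 665 to 1410 untreated, 38.2 to 321 at 2 weeks, 56.6 to 469 at 4 weeks and 121 to 1350 on regular diet, in units of the array's 75th percentile signal. The 12 microglia markers had medians of 0.77, 1.58 and 2.12, with 5, 8 and 9 higher at an unadjusted p under 0.05 and 0 called. The 12 oligodendrocyte precursor markers, of the cells in which these brakes act, had medians of -0.41, -0.44 and 0.04, with 2, 1 and 0 lower. Of 13 astrocyte markers, 5 were higher at each of the 3, and 1, 0 and 1 were lower (medians 0.35, 0.25 and -0.18). Of 13 subventricular zone progenitor markers, 6 were lower and 1 higher at 2 weeks (median -0.54), where Hes5, Id2 and Id4 had their lowest means. In the deviations described below, these members' r with this list were 0.13, -0.35 and 0.57, none with a permutation adjusted p under 0.05. Of 13 neuron markers, 0, 0 and 1 were lower against untreated, and 4 on regular diet against 4 weeks (median -0.52), beside 24.7% of all probes. The endothelial, pericyte and ependymal lists had medians between -0.29 and 0.32, and 0 markers of any list were called. In tissue RNA, fewer cells of a type and less RNA per cell cannot be told apart. Of the oligodendrocyte markers, 11 were well above background on all 16 arrays, and 0 were above it on none.

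Within the groups as labelled, the members moved in patterns that the comparison of groups does not show. Each array's deviation from its group mean was taken, and the 36 pairs of members were compared over 16 arrays by a permutation test that shuffles arrays within groups. The regular diet arrays mix times of recovery, so their deviations hold a time difference as well as the spread of replicates. The test shuffles these arrays as if they were alike. Its p-values over 16 arrays therefore cannot tell a difference between the times from replicates that vary together. For 7 pairs, the Benjamini-Hochberg adjusted p was under 0.05 for both Pearson's r and Spearman's rho.

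Notch1 and Lingo1 were the most closely linked, and in opposite directions. Where an array read high for Lingo1 it read low for Notch1, on 15 of 16 arrays (r = -0.87, permutation p = 3e-05, adjusted p = 0.00108; rho = -0.93, permutation p = 2e-05, adjusted p = 0.00072). At 2 weeks, for example, replicate 1 deviated by 0.41 for Notch1 and -1.26 for Lingo1, and replicate 2 by -0.42 and 1.34. The correlation was -0.87 without the 2 arrays farthest from the median, between -0.89 and -0.86 when any 1 array was left out, -0.89 over the 10 arrays without regular diet, and -0.80 with slide means also removed. Each slide holds 4 arrays, too few for a correlation within a slide. With median scaling it was -0.53 (permutation adjusted p = 0.0974).

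The other 6 pairs were positive. Jag1, Id1, Id4 and Axin2 went together, with r = 0.74 for Jag1 with Id4 (rho = 0.82, permutation adjusted p = 0.0115 and 0.00234), 0.71 for Jag1 with Axin2 (rho = 0.79, 0.033 and 0.0142), 0.71 for Jag1 with Id1 (rho = 0.72, 0.0458 and 0.0373), 0.68 for Id1 with Id4 (rho = 0.76, 0.0458 and 0.0146) and 0.66 for Id4 with Axin2 (rho = 0.73, 0.0484 and 0.0244). Hes5 went with Id2 (r = 0.69, rho = 0.77, permutation adjusted p = 0.033 and 0.0202). Without the 2 arrays farthest from the median, r in these 6 pairs was between 0.62 and 0.78. Read through the second probe of Id4, r was 0.51 for Jag1 with Id4 and 0.26 for Id4 with Axin2 (adjusted p = 0.333 and 0.468), so these links rest on 1 of the 2 probes of Id4. With the arrays as recorded, r in the 6 pairs was between 0.23 (Id1 with Id4) and 0.76 (Hes5 with Id2), with adjusted p from 0.0652 to 0.655, so none passed, while Notch1 with Lingo1 gave -0.84 (permutation adjusted p = 0.0101). Over the 10 arrays without regular diet, r in the 6 pairs was between 0.59 and 0.69, with adjusted p from 0.279 to 0.472, in a design of 864 orders whose smallest p is 0.00116.

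**Figure D3:**
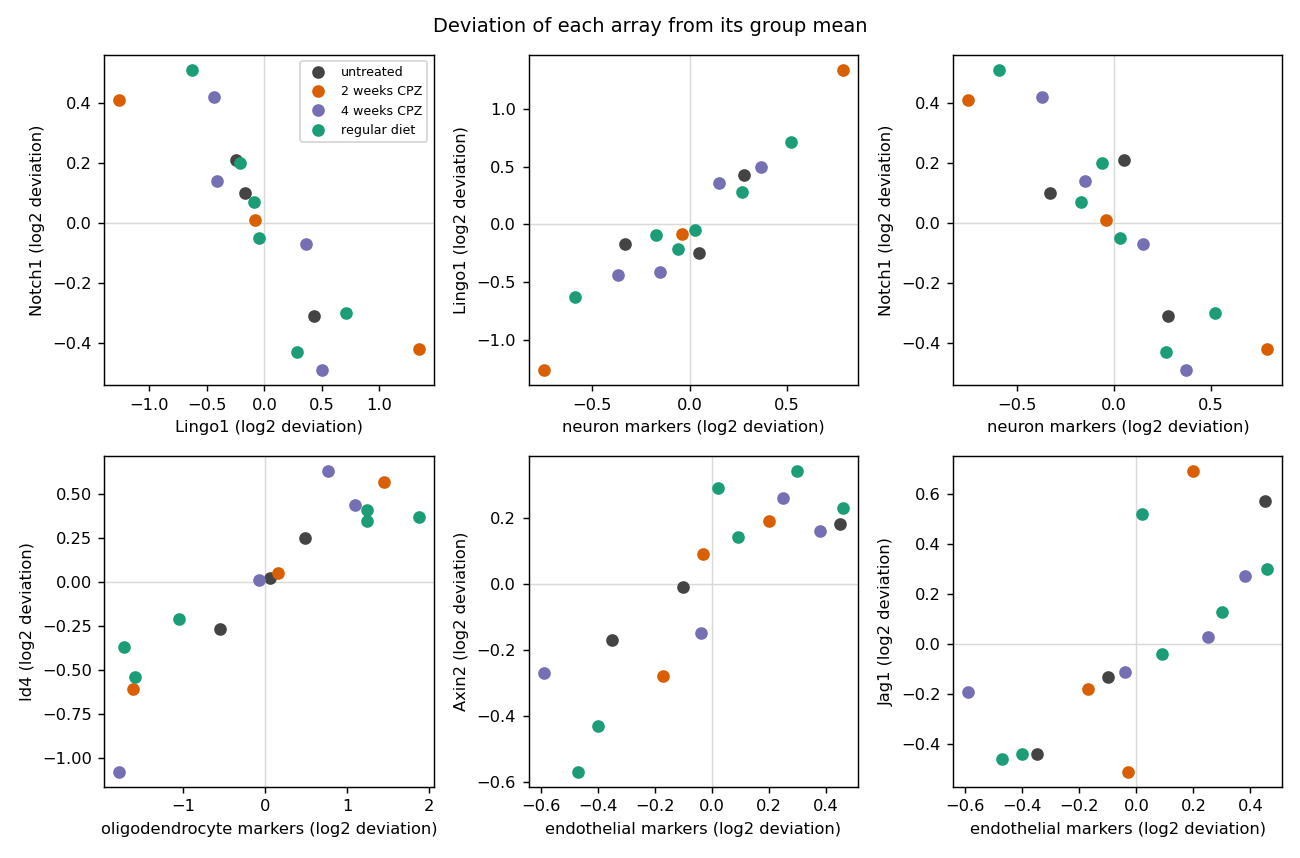
Deviation of each of the 16 arrays from its group mean on the log2 scale, with colours for the groups, in 6 panels: Notch1 against Lingo1, and Lingo1, Notch1, Id4, Axin2 and Jag1 each against the mean of a marker list. Notch1 falls as Lingo1 and the neuron markers rise (r = -0.87 and -0.90), and Id4 rises with the oligodendrocyte markers.

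The members' deviations were then set against the mean deviation of 9 cell type marker lists and 2 measures of array signal, 99 relations in all. Of these, 21 had an adjusted p under 0.05 for Pearson's r, and in 20 it was also under 0.05 for Spearman's rho. All 21 kept their sign without the regular diet arrays and with slide means removed, and 20 had an unadjusted permutation p under 0.05 over those 10 arrays. None of the 18 relations with array signal was among them. The relations share arrays, slides and members. As for the pairs, their p-values over all arrays take the mixed times of regular diet as replicates. These relations were not run with the arrays as recorded. The part of cell content in the values of these genes was not tested.

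Lingo1 followed the 13 neuron markers, among them Snap25 and Syt1 of the synapse (r = 0.96, permutation p = 0.0001, adjusted p = 0.00317; rho = 0.92, permutation p = 0.00023). Leaving out the 2 farthest arrays gave 0.92, and leaving out the regular diet arrays gave 0.96. It ran against the oligodendrocyte precursor markers (r = -0.77, rho = -0.74, permutation adjusted p = 0.0307). It also ran against the microglia markers (r = -0.59 over 16 arrays, and -0.81 over the 10 arrays without regular diet, permutation p = 0.00811). With median scaling these relations of Lingo1 were -0.38 and -0.43 over 16 arrays, and with slide means removed each was -0.50. Notch1 ran against the neuron markers (r = -0.90, permutation p = 7e-05, adjusted p = 0.00317, and rho = -0.86, permutation p = 0.00048), with 1 of 16 arrays on the same side. This became -0.41 with median scaling, while the value for Lingo1 with the neuron markers was 0.95 there. With the neuron list as a term, the correlation of Notch1 with Lingo1 was -0.06, and with each other list it was between -0.90 and -0.72. With the oligodendrocyte list as a term, r was 0.12 for Jag1 with Id4, 0.03 for Id1 with Id4, -0.11 for Id4 with Axin2, 0.36 for Jag1 with Id1, 0.33 for Jag1 with Axin2 and 0.68 for Hes5 with Id2. Other lists as a term lowered these too, such as the endothelial list to -0.05 for Id4 with Axin2 and 0.23 for Jag1 with Axin2, and the ependymal and astrocyte lists to 0.11 and 0.18 for Id1 with Id4.

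Id4 followed the oligodendrocyte markers. On regular diet the oligodendrocyte list deviated by -1.72, -1.59 and -1.05 on 3 arrays and by 1.24, 1.24 and 1.87 on the others, which for the brighter Id4 probe are the same 3 low and 3 high arrays. A figure legend of the study gives n = 3 at 2 days and n = 3 at 2 weeks of regular diet. Whether the split follows these times was not tested, as the labels do not separate them. The second Id4 probe showed no such split, with -0.46, 0.09 and 0.04 on the first 3 and -0.09, 0.05 and -0.17 on the others. Over the 10 arrays of the other groups r was 0.97 (permutation p = 0.00241), and over all 16 it was 0.92 (rho = 0.91, permutation adjusted p = 0.00317 for r). The second probe of Id4 gave 0.59. Id4 also rose with the ependymal and choroid plexus markers (r = 0.83, rho = 0.81, permutation adjusted p = 0.0148), the astrocyte markers (r = 0.80, rho = 0.84, permutation adjusted p = 0.0061) and the endothelial markers (r = 0.79, rho = 0.74, permutation adjusted p = 0.0115). For these lists its second probe gave r = 0.67, 0.72 and 0.40. Id1 rose with the ependymal and choroid plexus markers (r = 0.77, rho = 0.74, permutation adjusted p = 0.0181), the astrocyte markers (r = 0.76, rho = 0.78, permutation adjusted p = 0.0148) and the oligodendrocyte markers (r = 0.72, or 0.77 over the 10 arrays without regular diet).

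Axin2 followed the 13 endothelial markers, such as Cldn5 and Pecam1 of the vessel wall (r = 0.85, rho = 0.84, permutation adjusted p = 0.00317), with 0.86 without the regular diet arrays and 0.91 with slide means removed. Jag1 had its largest r with the oligodendrocyte markers (0.77, rho = 0.82, permutation adjusted p = 0.0148), which was 0.71 over the 10 arrays without regular diet. It also followed the endothelial markers (r = 0.74, rho = 0.79, permutation adjusted p = 0.0115) and lay on the same side as the astrocyte markers on 16 of 16 arrays (r = 0.72, rho = 0.81, permutation adjusted p = 0.0222). Notch1 went with the microglia markers. That list was far apart on regular diet, at 1.78 and 2.09 on 2 arrays and -1.09 to -0.79 on 4, so r is given over the other 10 arrays, where it was 0.90 (permutation p = 0.00466). Hes1, Hes5 and Id2 had no relation with an adjusted p under 0.05, and their largest r with a marker list were 0.51, 0.60 and 0.58. That of Id2, with the neuron markers, was 0.90 over the 10 arrays without regular diet (permutation p = 0.0166). It was 0.24 without the 2 farthest arrays.

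**Figure D4:**
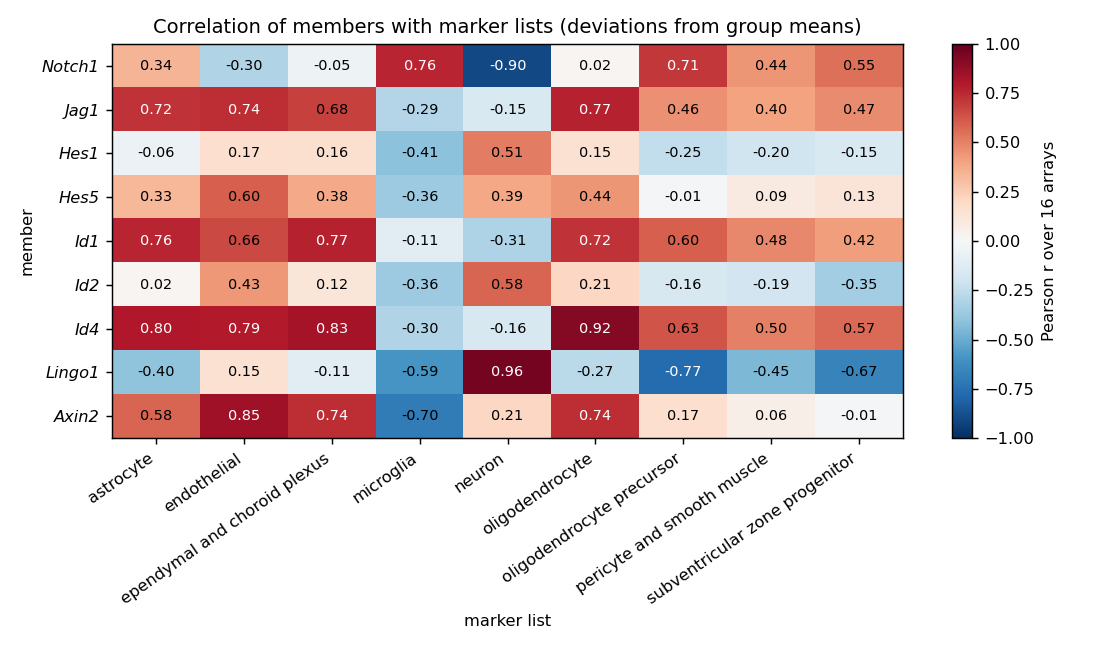
Pearson's r over 16 arrays between the deviations of each member (rows) and of each marker list (columns), from -1 in blue to 1 in red. Lingo1 and Notch1 sit at opposite ends for neuron markers (0.96 and -0.90), and Jag1, Id1, Id4 and Axin2 share positive values with astrocyte, endothelial, ependymal and oligodendrocyte markers.

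The promoters of Hes5 and Id2, the pair of a Notch target and an Id gene that deviated together, are shown from 250 bases before to 50 after the RefSeq start (assembly GRCm38.p6). Capitals mark GTGGGAA, the sequence RBPJ binds, or its reverse complement TTCCCAC, and GGCGCC, the element of bone morphogenetic protein response, which reads the same on both strands. The motifs do not overlap here. Hes5 is at chr4:154960673-154960972 on the plus strand and Id2 at chr12:25096043-25096342 on the minus strand.
Hes5: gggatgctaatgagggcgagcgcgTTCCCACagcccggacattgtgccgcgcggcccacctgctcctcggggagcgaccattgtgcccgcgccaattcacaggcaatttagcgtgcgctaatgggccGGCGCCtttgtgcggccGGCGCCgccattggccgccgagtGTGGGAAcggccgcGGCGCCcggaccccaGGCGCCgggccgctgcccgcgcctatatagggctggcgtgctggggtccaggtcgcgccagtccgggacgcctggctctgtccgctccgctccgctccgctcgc
Id2: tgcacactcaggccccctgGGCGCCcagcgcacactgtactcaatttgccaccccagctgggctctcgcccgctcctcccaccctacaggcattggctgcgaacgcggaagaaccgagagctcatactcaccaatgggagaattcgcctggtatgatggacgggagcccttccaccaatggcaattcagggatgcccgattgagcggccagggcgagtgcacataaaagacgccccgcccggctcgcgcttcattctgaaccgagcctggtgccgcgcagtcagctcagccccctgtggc

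Hes5 holds GTGGGAA on either strand 2 times, starting 226 and 83 bases before its start, and 6.38% of 32851 promoters hold it at least once. The other 6 members with a promoter in the table, Notch1, Jag1, Id2, Id4, Lingo1 and Axin2, do not have these letters in this window. GGCGCC occurs 4 times in Hes5, once in Id2 and once in Id4, and in 11.9% of all promoters. The Wnt motif CTTTGA occurs in Jag1 and Id4, and in 16% of promoters. Also searched, on both strands, were TGGGAA, which lies within GTGGGAA (Hes5 and Id4, 25.6% of promoters), CTTTGAT, which contains CTTTGA (no member, 3.73%), and the Hes motif CACNAG (Notch1, Id2, Id4 and Lingo1, 42.5%). A match of letters is a description of sequence and not a bound site.

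For each member the genes with the nearest pattern over the 16 arrays, among 13973 genes searched, are given as a description. They were Scaf11 (r = 0.94) and Tram2 (0.93) for Notch1, Lratd2 (0.87) and Islr (0.85) for Jag1, and Tmem116 (0.84) and Impact (0.82) for Hes1. For Hes5 they were Btbd17 (0.87) and Pcdh18 (0.85), for Id1 Pdgfc (0.89) and Med31 (0.87), for Id2 Cxxc5 (0.86) and Zfpm1 (0.85), and for Id4 Gstt3 (0.94) and Vmac (0.93). Lingo1 was followed by Clec2l and Tlcd3b, both at 0.97, and Axin2 by Hic1 (0.91) and Dnaja4 (0.88). These correlations hold the group differences and the array-to-array spread alike, and the points share slides and tissue content.

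The other genes of these pathways were read from 10 lists, whose counts include the members in them. With 0.193%, 0.175% and 0.803% of all probes called against untreated at 2 weeks, at 4 weeks and on regular diet, a list of this size with 0 or 1 call says nothing particular to it. At an unadjusted p under 0.05, 5 of 14 Wnt targets were taken in at 2 weeks (4 higher, 1 lower) and 5 at 4 weeks (3 higher, 2 lower). On regular diet 2 were higher and 0 lower. Of 17 genes of the Lingo and Nogo receptor complex it was 5 at 2 weeks (2 higher, 3 lower). Of 12 Notch targets 3, 2 and 3 were higher at 2 weeks, 4 weeks and on regular diet, and 0 lower. Of 33 bone morphogenetic protein and TGF-beta genes 3, 4 and 5 were higher and 4, 3 and 3 lower. The shares of all probes were 9.35%, 10.1% and 10.6%. Of 12 tested Notch receptors and ligands, 28 genes of Notch processing and its nuclear complex and 12 Notch targets, 0 were called at 2 weeks, 4 weeks or on regular diet against untreated. The list medians of the log2 difference were 0.17, 0.08 and 0.17 at 2 weeks and 0.02, 0.09 and 0.32 at 4 weeks, beside -0.02 and 0.03 over all genes. The endothelial ligand Dll4 read -0.74 at 2 weeks (-1.27 to -0.20, limma adjusted p = 0.269), the axonal ligand Cntn1 -0.50 (adjusted p = 0.585), and the ligand Dner 0.24 at 4 weeks (adjusted p = 0.816). Of the gamma-secretase that cuts Notch, Psen2 read -0.38 and Aph1a -0.53 at 2 weeks, and Ncstn 0.83 at 4 weeks (adjusted p = 0.763, 0.85 and 0.447). Myc, which is a target of both Notch and Wnt, read 1.87 at 2 weeks (0.89 to 2.85, adjusted p = 0.124) and 1.13 at 4 weeks (adjusted p = 0.348), and Kat2b, a histone acetyltransferase, -1.28 at 4 weeks (-2.29 to -0.27, adjusted p = 0.335). The survival gene Bcl2 read 0.78 at 2 weeks and Gfap, the astrocyte filament, 1.13 at 4 weeks (adjusted p = 0.16 and 0.437). None of these passed.

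Among 29 genes of the Wnt destruction complex and its nuclear effectors, 1 was called at 4 weeks, beside 0.175% of all probes. Dixdc1, a DIX-domain protein that acts with Dishevelled, fell at 4 weeks by 1.56 on the log2 scale (-2.08 to -1.03, limma adjusted p = 0.0481). At 2 weeks it read -1.40 (-1.96 to -0.84, adjusted p = 0.0667), which did not pass. Over 27 alternatives the 4-week value of Dixdc1 ran from -1.77 to -0.09 and passed in 12, with adjusted p from 0.000921 to 0.998. The value of -0.09 (adjusted p = 0.998) came with the arrays as recorded. It did not pass with any 1 untreated array left out, where the adjusted p was 0.0624, 0.248 and 0.109, nor with 2-week replicates 1 or 3 or 4-week replicates 1, 3 or 4 left out (0.0737 to 0.191). Daam2, a formin that raises Wnt signalling in oligodendrocyte precursors, read -1.38 at 4 weeks (-2.19 to -0.58, adjusted p = 0.157), and Bcl9l, a beta-catenin cofactor, -0.57 at 2 weeks (adjusted p = 0.363).

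Of 38 tested Wnt ligands, receptors and secreted inhibitors, 0 were called, beside those same shares. The receptor Fzd1 read 1.55 at 2 weeks (0.73 to 2.37, limma adjusted p = 0.125), the secreted inhibitor Wif1 -0.90 (adjusted p = 0.219) and the ligand Wnt3 -2.17 at 4 weeks (-3.71 to -0.62, adjusted p = 0.264). Of 14 tested Wnt targets, Cd44 was called on regular diet, beside 0.803% of all probes, by 3.37 (2.01 to 4.73, adjusted p = 0.0222), and its second probe by 3.31 (adjusted p = 0.0175). Cd44, a hyaluronan receptor, is also made by reactive astrocytes and immune cells. At 2 weeks Cd44 read 3.17 (adjusted p = 0.126), at 4 weeks 3.16 (adjusted p = 0.109), and the receptor Tnfrsf19, also a partner in the Lingo complex, 0.83 at 4 weeks (adjusted p = 0.247). The Cd44 call held in 24 of 32 alternatives and was lost with any 1 untreated array left out (adjusted p = 0.069, 0.0921 and 0.175) or with regular diet replicate 1 left out (0.0516). It was also lost with the arrays as recorded, where Cd44 read 0.36 (adjusted p = 0.941), with normexp background correction, where it read 1.94 (0.116), with the replicate block, where it read 3.85 (0.077), and in the methods' test (0.106).

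**Figure D5:**
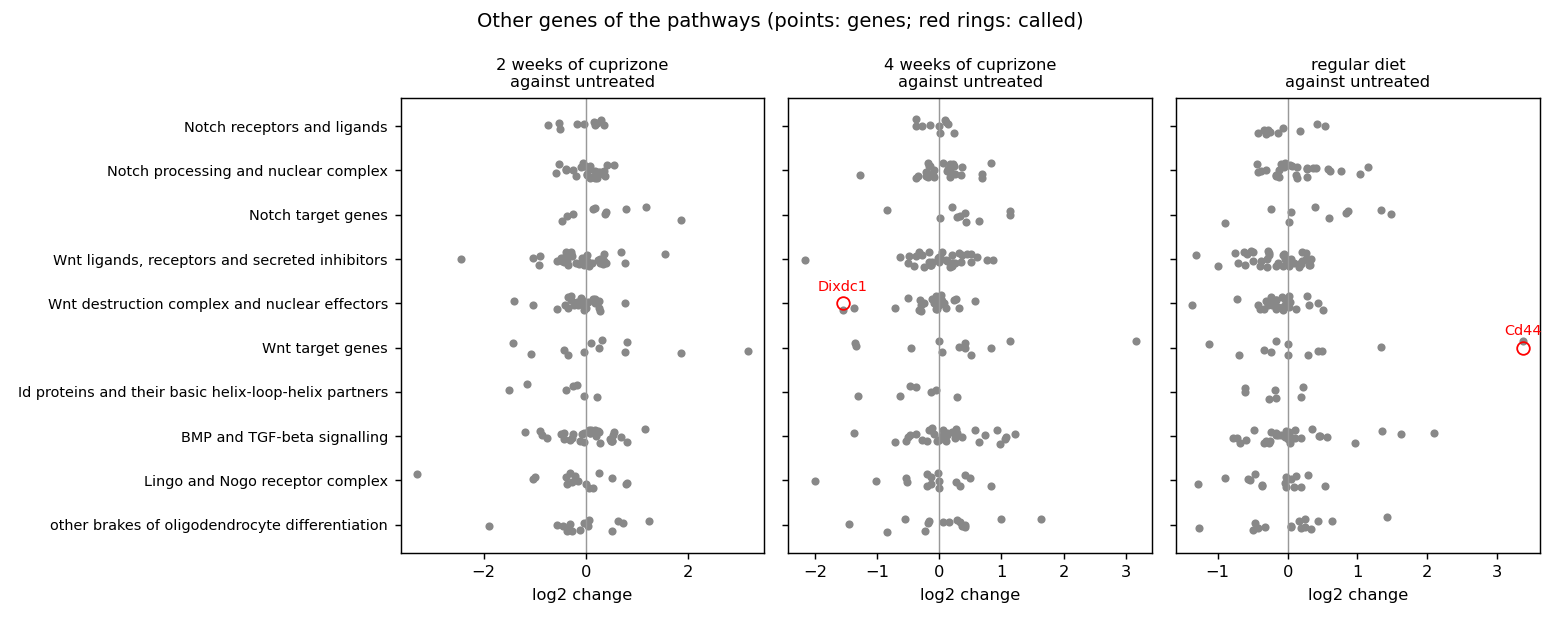
Log2 difference from untreated of the other tested genes in 10 pathway lists at 2 weeks, at 4 weeks and on regular diet, 1 point per gene (brightest probe). Red rings mark the list genes called, Dixdc1 at 4 weeks (-1.56) and Cd44 on regular diet (3.37), and most points of each list lie near 0.

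Id partners and the remaining brakes gave no call, which at the shares called among all probes says nothing about these lists. Of 10 tested Id proteins and their helix-loop-helix partners, Olig1, a factor of the oligodendrocyte lineage, read -1.50 at 2 weeks (-2.81 to -0.19, limma adjusted p = 0.417) and -1.31 at 4 weeks (-2.53 to -0.08, adjusted p = 0.445). Of 33 bone morphogenetic protein and TGF-beta genes, the inhibitor Smad7 read -1.18 at 2 weeks (adjusted p = 0.176) and -1.37 at 4 weeks (0.108), the transcription factor Zeb2 -0.85 at 2 weeks (adjusted p = 0.185), and the antagonist Chrdl1 1.21 at 4 weeks (0.67 to 1.76, adjusted p = 0.0893). Of 17 genes of the Lingo and Nogo receptor complex, the ligand Mag, itself a myelin protein, read -3.30 at 2 weeks (-5.39 to -1.21, adjusted p = 0.195), and the kinase Wnk1 -0.99 at 2 weeks (adjusted p = 0.195) and -1.02 at 4 weeks (0.149). Of 15 other brakes of differentiation, Klf4 read 1.24 at 2 weeks (0.22 to 2.26, adjusted p = 0.368) and Gpr37, a receptor of maturing oligodendrocytes, -1.89 (-3.64 to -0.13, adjusted p = 0.475). At 4 weeks the lectin Lgals1 read 1.64 (0.77 to 2.51, adjusted p = 0.122) and the deacetylase Hdac2 0.42 (adjusted p = 0.528).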

How the data were processed

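The authors ran Agilent Feature Extraction (version 11.0.1.1 in the submitters' processing notes) and deposited the scanner intensity of each spot, together with a table of log2 values scaled to the 75th percentile. Its columns are relative to the median of the 3 untreated arrays, which was found from the values. The log2 table was the source of the log2 values relative to untreated and of the main tests. The scanner intensity files gave background flags, signal levels such as the summed marker levels, and the values of some alternatives. Each file was identified with a column by its values (lowest r 0.9997, next best at most 0.85, over 28153 probes). Accessions were matched to RefSeq symbols, naming 27459 probes (66.7%).

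Probes were tested with limma 3.58.1 in R 4.3.3, and p-values were adjusted over all 27499 probes (10 arrays, 7 residual degrees of freedom, for the CPZ comparisons) or 27779 probes (16 arrays, 12 degrees of freedom, for regular diet). A gene is given by its brightest tested probe. Deviations from group means were compared with 100000 permutations within groups. The numbers of arrays limit precision. Alternatives covered values, array assignment, scaling, background, filter, slide, replicate block, array weights, test, probe and arrays left out. The file column for normexp was gMedianSignal in place of a mean signal, which the files used here do not hold.

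Members and lists were chosen with earlier results of these data known. Named genes are the members, the nearest pattern for each, every called gene of the lists, and the 2 genes of each pathway list with the lowest p at 2 and at 4 weeks. One gene this rule names is not reported here. The correlations of deviations were chosen after seeing the data.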

Additional observations from a re-analysis of the deposited data

How the results depend on the processing

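No member was called in any comparison under any alternative except array weights, which called 1 at 2 weeks against untreated (Hes5, -1.29, limma adjusted p = 0.0107) and 1 at 4 against 2 weeks (Hes5, 1.34, adjusted p = 0.000947). These weights stopped before convergence and called 1752 and 2487 probes in those comparisons, against 53 and 3 without them, and the cause was not tested. With any 1 array left out, 0 members were called. Over all alternatives the count of called probes ran from 0 to 1752 at 2 weeks (53 as reported), 0 to 1900 at 4 weeks (48), 0 to 2487 between 4 and 2 weeks (3), 0 to 1070 on regular diet against untreated (223) and 0 to 1565 against 4 weeks (1). With 1 array left out they ran from 1 to 72, 0 to 181, 0 to 52, 5 to 240 and 0 to 1537. Under the recorded assignment of arrays limma called 0 probes in each, with 326, 811, 638, 2895 and 1963 at an unadjusted p under 0.05. Median scaling moved the median of all probes by up to 0.30, and its higher and lower calls were 15 and 14 at 2 weeks (19 and 34 as reported), 30 and 8 at 4 weeks (25 and 23), 1 and 4 between 4 and 2 weeks (0 and 3), 127 and 1 on regular diet against untreated (220 and 3) and 637 and 631 against 4 weeks (1 and 0). The methods' test called 18, 10, 11, 12 and 4 probes. As no member was called, a member's direction is not fixed, and the sign of uncalled differences changed in some alternatives. The replicate numbers do not pair the samples: over 19 pairs of same-numbered arrays the correlation of deviations ran from -0.80 to 0.34, with 5 over 0.1. With the replicate block, 0 members and 0, 0, 0, 24 and 0 probes were called in the 5 comparisons. Of the pair correlations, all alternatives of which were chosen after seeing the data, Notch1 with Lingo1 passed in 7 of 8 settings and with each of 16 arrays left out. The other 6 passed in 2 to 4 of 8, and Jag1 with Id4 passed with each array left out. Of the 16 runs with 1 array left out, Hes5 with Id2 passed in 7 and Jag1 with Axin2 in 6. Jag1 with Id1 and Id4 with Axin2 passed in 4 each, and Id1 with Id4 in 3. The number of arrays limits what can be seen. At 2 weeks the intervals of Hes5 (-2.27 to 0.76), Lingo1 (-1.62 to 1.01) and Id4 (-1.44 to 0.62) reached beyond a 2-fold change. Those of Jag1 (-0.44 to 1.15), Id1 (-0.36 to 1.08) and Id2 (-1.25 to 0.16) did so too. A change of more than 2-fold is therefore left possible for these genes there.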
